A study of Homo sapiens with 2 samples.

Results

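A set of 10 genes of endothelin, adrenomedullin and VEGF signalling was followed in Huh-7, an established line from a human hepatocellular carcinoma, after transfection with siRNA against DEPDC1. The genes were taken by symbol from the array's annotation, and all 10 of 10 were found, each with 1 probe set that lists a single gene, among 18417 genes measured this way. Total RNA was measured on 2 arrays: 1 of cells given the control that the labels call NC, and 1 of cells given the DEPDC1 siRNA, each harvested at 72 h. Both arrays are labelled biological replicate 1, so replicate spread is unknown and no test was run. The sequence and number of the siRNAs are not given in the sources used here. DEPDC1 itself, the targeted transcript, had 7.82 in NC and 5.15 in siRNA on the log2 scale, a 6.37-fold lower value.

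Endothelins are small peptides cut from larger precursors. Endothelin-converting enzyme makes the final cut, and the peptide acts on a pair of G protein-coupled receptors to contract vessels and to drive growth of several cell types. In the liver, endothelin 1 is known for contracting stellate cells. Adrenomedullin is an opposing, vessel-relaxing peptide. The VEGF ligands act on receptor tyrosine kinases of blood and lymphatic endothelium, and tumour cells are a common source of these ligands. EDN1, ADM, VEGFA and FLT1 are textbook targets of the hypoxia-inducible factors.

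All values are the authors' deposited expression values on the log2 scale, and differences are given as siRNA minus NC. Genes were called detected if either array reached 4.66, the pooled median of both arrays and so a convention, not a background reading. Of the 10 genes, 7 lay above that level in both arrays, 1 (FLT1) in the siRNA array alone, and 2 (EDNRB and KDR) in neither. Among the 8 detected genes, 2 were past 2-fold higher in the siRNA array by their measured values, EDN1 and FLT1, none was past 2-fold lower, and 6 lay between. Over all 11352 detected genes, 1.94% were higher by that fold and 0.863% lower, and 49.9% had a positive difference of any size. FLT1 passed the detection level only through the array where it was high, and against that level it was at least 1.15-fold higher, which leaves EDN1 as the 1 gene of the set with a fold above 2 measured on both sides. The median difference of the 8 detected genes, FLT1 included through its siRNA value, was 0.52, and that of all detected genes was 0. The median of 0.52 depends on the detection filter, which kept FLT1 and left out EDNRB and KDR. Over all 10 genes, 5 differences were positive and 5 negative, with a median of -0.01. Measurement noise, without that of culture, was gauged from genes with several detected probe sets, whose differences spanned a median of 0.0866 and a 90th percentile of 0.413 over 444 genes. By measured values, 2 of the 8 detected genes (ECE1 and VEGFA) differed by less than that 90th percentile. For FLT1, the difference against the detection level is at least 0.20, which does not place it beyond that percentile.

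**Figure D1:**
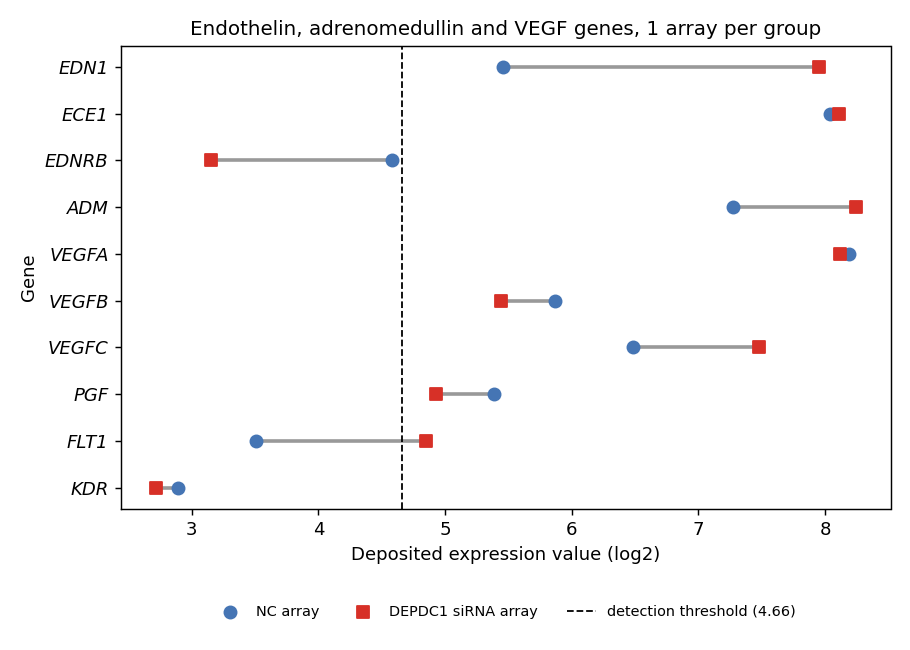
Deposited log2 values of the 10 genes in the NC array (circles) and the DEPDC1 siRNA array (squares), 1 array per group, with the detection level of 4.66 as a dashed line. EDN1 has the longest step, from 5.46 to 7.95, ECE1 and VEGFA nearly coincide, and EDNRB and KDR lie left of the line in both arrays.

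EDN1, which encodes the precursor of endothelin 1, had the largest difference of the set. Its value was 5.46 in NC and 7.95 in siRNA (probe set 8116921, Entrez gene 1906), a difference of 2.49 or 5.62-fold. Both values were above the detection level, so the fold is measured on both sides. The gene ranked 8 among the 11352 detected genes ordered from the highest difference downwards. ECE1, the main endothelin-converting enzyme, had 8.04 in NC and 8.11 in siRNA, a difference of 0.06, which is inside the probe-set gauge. EDNRB, the endothelin receptor that binds all endothelins alike, had 4.58 in NC, 0.08 short of the detection level, and 3.15 in siRNA. Its measured difference of -1.43 lies wholly under that level and is given without a fold.

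No other detected gene of the endothelin axis differed by 2-fold. Of 9 listed genes of the axis, 8 had a probe set of their own and 4 were detected. Of the 4, 1 (EDN1) was at least 2-fold higher and none at least 2-fold lower, with a median of 0.08. By comparison, 1.94% of all detected genes were higher by that fold and 0.863% lower. EDN2, a second endothelin precursor, had 4.80 and 4.91, and ECE2, a related converting enzyme, had 5.98 and 5.69, a difference of -0.29. EDN3, MME (neprilysin, which degrades endothelins) and KEL lay under the detection level in both arrays. EDNRA, the other endothelin receptor, was not analysed here. The ligand transcript was thus higher beside a converting enzyme at nearly the same value and with the measured receptor under the detection level.

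Stretches before an annotated EDN1 start are shown because they hold matches to textbook binding motifs of this gene. Windows of 250 bases upstream of each annotated start were taken from RefSeq (GRCh38.p14), which gave 16 windows for 9 of the 10 genes, 3 of them for EDN1. The following 30-base stretches lie before the third EDN1 start in the direction of transcription, on the plus strand, with the matched bases in capitals. The matches are to GATAA on the opposite strand, to the hypoxia-inducible factor core ACGTG on the opposite strand, and to the TATA box TATAAA on the same strand. The first and second stretch overlap.
EDN1 GATA match, chr6:12290213-12290242: tcgggcctggccTTATCtccggctgcacgt
EDN1 HIF core match, chr6:12290226-12290255: tatctccggctgCACGTtgcctgttggtga
EDN1 TATA match, chr6:12290318-12290347: ataggggttcaaTATAAAaagccggcagag
Counted from the start, the GATA match covers bases 136 to 132 upstream, the HIF core 123 to 119 and the TATA box 31 to 26. The window of the first EDN1 start holds ACGTG but no GATAA or TATAAA. That of the second start holds none of these motifs. Of all 35116 RefSeq windows of this length, 20.4% hold GATAA, 18.5% hold ACGTG and 10.7% hold TATAAA on either strand. A match describes the letters only and is no measurement of binding.

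No detected transcript of a factor described at the EDN1 promoter differed by 2-fold. That fold was rare over all detected genes too, at 1.94% higher and 0.863% lower. Of 20 listed factors, 19 were detected, 7 with a positive and 12 with a negative difference, with a median of -0.13, beside 49.9% positive differences over all detected genes. GATA4, a liver and heart GATA factor, had 8.97 in NC and 8.12 in siRNA, a difference of -0.85. SMAD2, a transducer of TGF-beta signals, also differed by -0.85 (7.32 and 6.47), and the AP-1 subunit JUNB by -0.70. KLF4, a zinc finger factor, had the largest positive difference, 0.54. These values are transcript levels and give no measure of protein activity.

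ADM, the adrenomedullin precursor, was the second of the peptide hormones with a higher value. It had 7.27 in NC and 8.24 in siRNA (probe set 7938390, Entrez gene 133), a difference of 0.97 or 1.96-fold, just short of 2-fold. Of the detected genes, 97.9% had a smaller signed difference. Its partners were closer to 0. Of 13 listed genes of the adrenomedullin and CGRP axis, 12 had a probe set of their own and 7 were detected. None differed by 2-fold, beside 1.94% higher and 0.863% lower over all detected genes, and the median was 0.18. PAM, the enzyme that amidates adrenomedullin, differed by 0.25 (7.06 and 7.31), ADM2, a related peptide, by 0.18 and RAMP1, a receptor partner protein, by -0.20. CALCRL, the receptor that binds adrenomedullin together with RAMP proteins, lay under the detection level in both arrays. As with endothelin, the ligand was higher and the measured receptor was not detected.

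Among the VEGF ligands, VEGFC was higher, VEGFA was nearly level, and VEGFB and PGF were lower. VEGFC, the ligand of lymphatic vessel growth, had 6.48 in NC and 7.48 in siRNA (probe set 8103822, Entrez gene 7424). The difference was 0.9987 or 1.998-fold, so it missed the 2-fold mark by less than the rounding of the values. VEGFA, the main ligand of blood vessel growth, had 8.19 and 8.12 (probe set 8119898, Entrez gene 7422), a difference of -0.08 inside the probe-set gauge. A single value stands for all its splice forms. VEGFB, a ligand of FLT1, had 5.87 and 5.44, a difference of -0.43. PGF, placental growth factor and also a ligand of FLT1, had 5.39 and 4.93, a difference of -0.46. The values of VEGFB and PGF were above the detection level in both arrays, and each difference was close to the 90th percentile of the probe-set gauge (0.413).

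**Figure D2:**
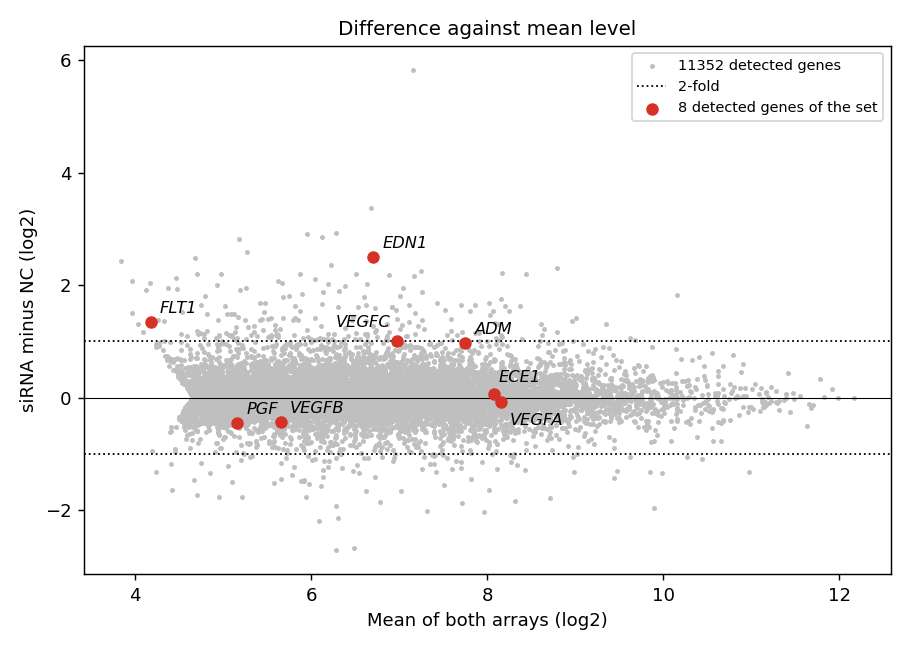
Difference (siRNA minus NC, log2) against the mean of both arrays (log2) for 11352 detected genes (grey) and the 8 detected genes of the set (red), with dotted lines at 2-fold. EDN1 at 2.49 stands far above the upper line, FLT1 at 1.34 lies above it at the dim edge of the plot, ADM and VEGFC sit on it, and the other 4 lie between the lines.

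VEGF receptors were dim. FLT1 (VEGF receptor 1) had 3.51 in NC, under the detection level, and 4.85 in siRNA, only 0.20 above it. Its measured difference was 1.34, but against the detection level the fold is a bound of at least 1.15-fold higher. KDR (VEGF receptor 2), the main signalling receptor of VEGFA, had 2.89 and 2.72, both under the level. FLT4, the VEGFC receptor, was under the level in both arrays. The co-receptors were above it: NRP2, which binds VEGFC and semaphorins, had 4.78 in NC and 6.97 in siRNA, a difference of 2.19 or 4.57-fold. NRP1, named after its value was seen, had 7.78 and 8.13. Of the 7 detected VEGF ligands, receptors and co-receptors, 2 were past 2-fold higher by measured values (NRP2 and FLT1), beside 1.94% of all detected genes. None of the 7 was past 2-fold lower, and their median was 0.34. With values under the detection level raised to it, NRP2 was the 1 gene past 2-fold and the median was 0.20.

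Endothelial cells would be the usual source of FLT1 and KDR transcripts. Of 14 endothelial markers, 12 lay under the detection level in both arrays, PECAM1, CDH5, VWF, TEK and TIE1 among them. The detected markers, CLDN5 and CLEC4G, differed by -0.19 and -0.12. Summed on the linear scale, the 14 markers had 214 in NC and 201 in siRNA. Among 14 fibroblast, stellate cell and pericyte markers the linear sum was 577 in NC and 1620 in siRNA. That sum largely follows its brightest marker, LUM, which had log2 values of 7.64 in NC and 9.95 in siRNA. The median difference of the detected markers of this list was 0.11. Of 7 detected there, 3 were higher by 2-fold or more (LUM, FBN1 and COL1A2), beside 1.94% of all detected genes. DES, PDGFRA, COL1A1 and COL3A1 had differences of 0.11, 0.09, 0.06 and -0.04. The other 7 (PDGFRB, ACTA2, DCN, RGS5, LRAT, TAGLN and THY1) lay under the detection level in both arrays. The part of these markers in the EDN1, ADM and VEGFC values was not tested. Among 10 hepatocyte markers, 4 were past 2-fold lower by measured values (SERPINA1, APOB, TF and AHSG) and 1 (TTR) past 2-fold higher, with a median of -0.74. Over all detected genes, 0.863% were lower by that fold and 1.94% higher. AHSG lay under the detection level in the siRNA array, so its fold is a bound of at least 1.82-fold lower. The labels name only Huh-7 cells, so these markers describe transcripts of that culture and are no count of other cell types. In bulk RNA, a change in the share of cells with a transcript and in RNA per cell cannot be told apart.

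The upstream windows of ADM, VEGFC and FLT1 are shown because these genes, with EDN1, had the highest measured differences of the set. ADM, VEGFC and FLT1 each have a single annotated start in the RefSeq table. The place of FLT1 rests on an NC value under the detection level, and against that level its difference is only a bound of at least 0.20. Capitals mark matches on either strand to the HIF cores ACGTG and GCGTG, the AP-1 motif TGANTCA, the cAMP response element TGACGTCA and the TATA box TATAAA.
ADM, chr11:10304823-10305072, plus strand: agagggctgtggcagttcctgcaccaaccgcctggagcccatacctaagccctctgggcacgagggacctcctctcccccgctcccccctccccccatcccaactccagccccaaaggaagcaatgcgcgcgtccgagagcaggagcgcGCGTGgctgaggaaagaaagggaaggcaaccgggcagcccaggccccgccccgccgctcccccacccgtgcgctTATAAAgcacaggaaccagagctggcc
VEGFC, chr4:176792923-176793172, minus strand: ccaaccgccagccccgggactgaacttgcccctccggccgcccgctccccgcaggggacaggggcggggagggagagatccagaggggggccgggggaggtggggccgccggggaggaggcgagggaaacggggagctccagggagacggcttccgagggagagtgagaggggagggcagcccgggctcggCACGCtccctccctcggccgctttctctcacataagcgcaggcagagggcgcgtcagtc
FLT1, chr13:28495129-28495378, minus strand: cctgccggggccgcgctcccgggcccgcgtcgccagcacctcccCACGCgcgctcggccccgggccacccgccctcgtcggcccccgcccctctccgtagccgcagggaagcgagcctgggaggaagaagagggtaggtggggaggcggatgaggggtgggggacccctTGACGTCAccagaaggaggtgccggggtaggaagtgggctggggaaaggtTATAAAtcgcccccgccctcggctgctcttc
Each of these windows holds a GCGTG match, as do 32.2% of all windows. ADM and FLT1 hold a TATA box, and FLT1 holds the cAMP response element, which 1.65% of all windows hold. Either HIF core was present in 11 of the 16 windows of the set, from 8 of the 9 genes, against 43.2% of all windows. Those genes include ECE1, VEGFB and PGF, whose values were level or lower in siRNA. The 43.2% counts windows, not genes. Other scanned motifs also lay away from their share. The GC-rich motif GGGCGG was present in 12 of the 16 windows, from 9 of the 9 genes, against 42.6% of all windows. CCAAT was present in 2 of the 16, against 32%. Some windows of the same gene overlap, and the windows were not matched to the others for GC content. GC content was 68% for ADM, 74% for VEGFC and 73.2% for FLT1, beside a median of 58% over all windows.

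No other detected transcript listed as a target of hypoxia-inducible factors differed by 2-fold. Such a fold was rare among all detected genes as well, with 1.94% higher and 0.863% lower. Of 31 listed targets outside the set, 27 were detected, 9 with a positive and 18 with a negative difference, with a median of -0.10, beside 49.9% positive differences over all detected genes. PDK1, a kinase that restrains pyruvate oxidation, had 8.13 in NC and 7.28 in siRNA, a difference of -0.86. The glycolytic genes ALDOC and PFKFB3 differed by -0.78 and -0.77, and the hexokinase HK2 by 0.64. Among 9 detected genes of the factors and their oxygen sensors, the median was 0.09 and none differed by 2-fold. CITED2, which competes with the hypoxia-inducible factors for a co-activator, had the largest difference there, 7.57 against 8.48 or 0.91. VHL, which marks the factors for degradation, differed by -0.31.

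Enzymes that process these precursors were level apart from 1. Of 10 detected genes, 1 (ADAMTS3) was at least 2-fold higher by its measured values, beside 1.94% of all detected genes. In the list, 4 differences were positive and 5 negative, and the median was -0.01 (mean 0.13). ADAMTS3, the protease that activates VEGFC, had 4.45 in NC, under the detection level, and 5.89 in siRNA, which is at least 2.35-fold higher. Its cofactor CCBE1, named after its value was seen, had 5.20 in both arrays. FURIN, a convertase that cuts many precursors, had 7.97 and 7.68, a difference of -0.30.

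Few downstream signalling genes passed 2-fold, as was so over all detected genes, where 1.94% were higher by that fold and 0.863% lower. Of 33 detected genes of VEGF receptor signalling, 16 differences were positive and 16 negative, 1 gene was at least 2-fold higher and none lower, with a median of 0.00. PLA2G4A, which releases arachidonic acid, was at least 2.43-fold higher, with an NC value of 4.56 under the detection level and 5.94 in siRNA. The adaptor NCK2 differed by 0.72, the kinase AKT1 by 0.65 and NFATC2, a calcium-controlled transcription factor, by -0.59. Of 23 detected genes of G protein signalling downstream of endothelin receptors, 17 differences were positive and 6 negative, beside 49.9% positive over all detected genes. None of the 23 differed by 2-fold. Their median was 0.15, beside 0 over all detected genes. The probe-set gauge is for single genes and gives no spread for a list median. ITPR3, a calcium release channel, differed by 0.52, PRKCE, a protein kinase C, by -0.46 and the phospholipases PLCB1 and PLCB3 by 0.36 and 0.35. Among 5 factors that act on VEGFA mRNA stability, ZFP36L2, which promotes decay of AU-rich mRNAs, differed by -0.65 and ELAVL1, which stabilises them, by -0.21.

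**Figure D3:**
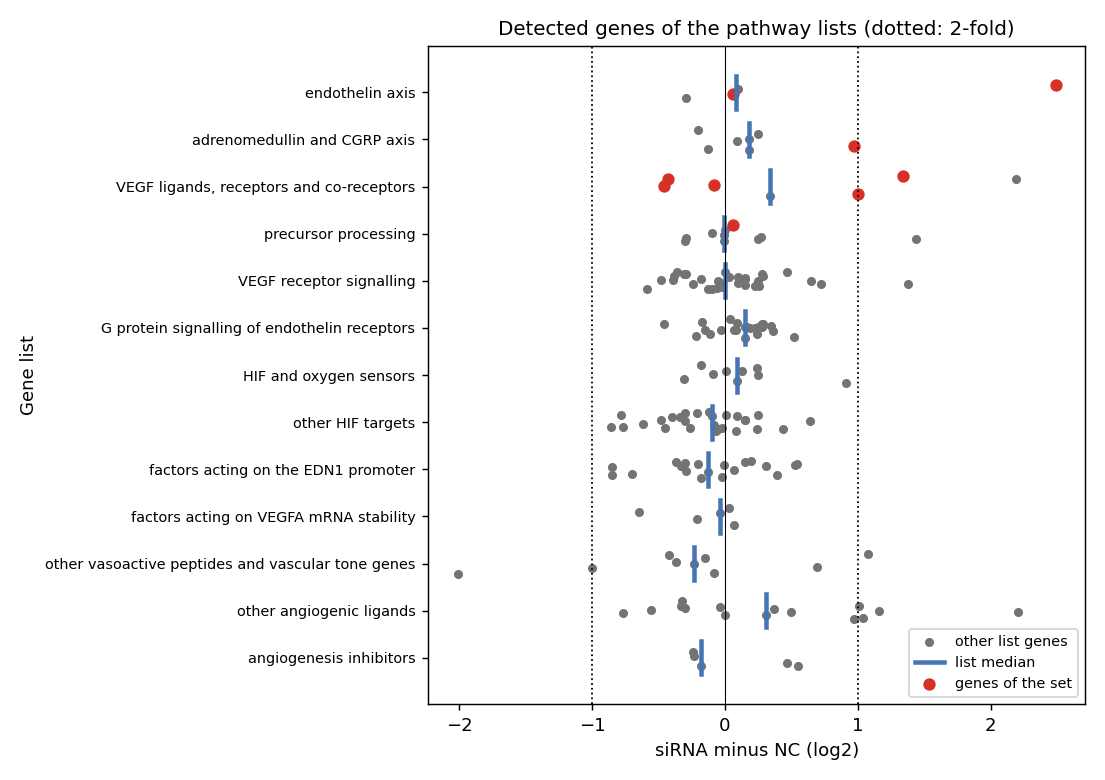
Differences (siRNA minus NC, log2) of the detected genes in 13 pathway lists, with genes of the set in red, other genes in grey and each list's median as a blue bar; dotted lines mark 2-fold. The medians lie between -0.23 and 0.34, and EDN1 at 2.49 is the rightmost point.

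Other vasoactive and angiogenic genes went both ways. Of 9 detected vasoactive peptide and vascular tone genes, KNG1 (kininogen, the bradykinin precursor) was 4.03-fold lower and AGTR1, the angiotensin receptor, 2.11-fold higher (4.97 and 6.05). The median was -0.23. NPPB, the natriuretic peptide precursor, had 8.80 and 7.81 and was 1.99-fold lower. Of 15 detected angiogenic ligands outside the set, 4 were at least 2-fold higher and none lower, with a median of 0.31. Over all detected genes, 1.94% were higher by that fold and 0.863% lower. The 4 were CCN1, EFNB2, PDGFC (5.66 and 6.69) and CCN2, with PDGFC at 1.04 and CCN2 at 1.01 just past the mark. Among 5 detected angiogenesis inhibitors, the median was -0.18 and the mean 0.07. THBS1, thrombospondin 1, had the largest difference, 0.55, and none passed 2-fold.

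No detected gene next to the set on the chromosomes differed by 2-fold. Of all detected genes, 1.94% were higher by that fold and 0.863% lower, so none in a short list is near that share. Of 20 protein-coding neighbours in the RefSeq order, 16 had a probe set of their own and 11 were detected, with differences from -0.42 to 0.74. HIVEP1, beside EDN1, differed by 0.28, and PHACTR1 on the other side was under the detection level. SPCS3 and NEIL3, beside VEGFC, differed by -0.29 and -0.11. PAN3 and POMP, beside FLT1, differed by 0.28 and 0.13. These neighbours were named after their values were seen.

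The genes most like EDN1 over the 2 arrays were FBN1, TXNIP and RIN2. Likeness was the distance between the 2 log2 values of a probe set and those of EDN1, which was 0.336 for FBN1 (5.79 and 7.98), 0.347 for TXNIP (5.41 and 7.60) and 0.351 for RIN2 (5.63 and 7.64). FBN1 encodes the matrix protein fibrillin 1, TXNIP a thioredoxin-binding protein and RIN2 a RAB5 regulator. For FLT1 the nearest were CXCR4, KYNU and HCAR1, all under the detection level in the NC array. With 2 arrays this likeness describes a pair of values only.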

How the data were processed

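The submitters' processing notes name Transcriptome Analysis Console 3.0 and Affymetrix Expression Console; their roles, the background correction and the normalization are not given in the sources used here. The labels' protocols give TRIzol extraction and biotinylated cRNA. The deposited values, taken as log2 expression, covered 33297 probe sets, lay between 1.39 and 12.7, had a median of 4.67 in the NC and 4.64 in the siRNA array, differed by at most 0.0997 at any rank, and were used without further scaling. The unit is not stated by the labels. In GEO's platform annotation 19460 probe sets name 1 gene, 1754 name several and 12083 are unnamed; symbols were updated by Entrez identifier against RefSeq (19429 matched). For the 769 genes with more than 1 probe set, the brightest was used. Probe sets of several genes stayed out. Precision is limited by the number of arrays.

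The genes and lists were chosen with earlier results of these data known. Named were the 10 genes, DEPDC1, the detected list genes at least 2-fold different or among the 4 largest differences of a list, and the 3 genes nearest to each 2-fold gene of the set; others are marked, except list genes given only as detected or not, which were also picked after their values were seen, as were PDGFRA, COL1A1 and COL3A1. Where a value lay under the detection level, the fold is a bound against it. The counting was tested on simulated data. Python 3.11.15, pandas 2.3.3 and statsmodels 0.14.6 were used. Alternatives covered scaling, a level trend, probe set choice, the detection level, the fold and the list summary.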

Additional observations from a re-analysis of the deposited data

How the results depend on the processing

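Of 75 values of the 10 genes under alternative settings, 72 moved by less than 0.157, the SD among probe sets of the same gene. The exceptions came with values raised to the detection level, where FLT1 was 0.20 and EDNRB and KDR were 0.00. Probe set choice, the 75th percentile and no filter could not move these values. Each gene has 1 probe set, and a filter leaves values unchanged. Quantile normalization and median centring could not move a value by 0.157 either, because the arrays differed by at most 0.0997 at any rank. Raising values to the level could move only FLT1, EDNRB and KDR. The count of 72 was thus largely fixed by the settings and is no measure of stability. Over the deposited scaling, quantile normalization, median centring and a lowess trend (fraction 0.3), EDN1 ran from 2.45 to 2.52, ADM from 0.96 to 1.0 and VEGFC from 0.96 to 1.03, and no gene of the set changed sign. Genes of the set at least 2-fold higher numbered 2 as reported, 4 with median centring (ADM and VEGFC passing), 4 at 1.5-fold, 1 with the 75th percentile as detection level (5 detected) and 1 with values raised to the level; without a filter 1 (EDNRB) was lower. Over all genes, 137 were higher with the 75th percentile; at 1.5-fold 685 were higher and 424 lower. With the 75th percentile, list medians were 1.28 (endothelin axis), 0.67 (VEGF), -0.28 (other HIF targets), -0.29 (EDN1 promoter factors), -0.71 (vasoactive), 0.64 (angiogenic ligands) and 0.47 (angiogenesis inhibitors, the sign turned). Without a filter the VEGF and angiogenic ligand medians were each 0.12. Means in place of medians were 0.59 (endothelin axis), 0.56 (VEGF) and 0.07 (angiogenesis inhibitors). With the 75th percentile the lists held fewer genes and without a filter more; the means use the same genes as the medians. List genes at least 2-fold higher went from 1 to 0 with the 75th percentile in precursor processing (ADAMTS3), VEGF receptor signalling (PLA2G4A) and the vasoactive list (AGTR1). Angiogenic ligands went from 4 to 3 with it, with quantile normalization and with the lowess trend, and vasoactive genes at least 2-fold lower from 1 to 2 with the lowess trend. No paired analysis was possible because each group has 1 array. Signal near background limits FLT1, EDNRB and KDR.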
